A study of Mus musculus with 12 samples.

Results

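The cytosolic ribosomal protein genes encode the proteins of the ribosome, the Rpl and Rplp genes those of the large subunit and the Rps genes and Rpsa those of the small subunit. Members were chosen by gene symbol alone, leaving out pseudogene symbols and the S6 kinases, whose symbols begin in the same way. The rule found 85 genes among the 24421 of the count table, 52 of the large and 33 of the small subunit. Of these, 79 had at least 10 counts in 6 or more libraries and were tested, 47 of the large and 32 of the small subunit, among 15111 tested genes in all.

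RNA was sequenced from bilateral striatum, a forebrain region of reward and movement, of C57BL/6J males, inbred mice known for high ethanol intake. Every animal had drunk 20% ethanol in a limited-access procedure, Drinking-in-the-Dark, with 3 cycles of 2 days and sessions of 2 h that began 3 h into the dark phase. In 2 of the cycles an injection was given 30 min before drinking, of saline for 6 libraries and of varenicline, a partial agonist of nicotinic acetylcholine receptors, at 2 mg/kg for the other 6. The labels name no transgene. No group without ethanol is among the samples, so ethanol is shared by both groups. The labels do not say whether each library came from 1 mouse, so p-values cover only the spread among these libraries. The comparison asks which striatal messages differ with varenicline when ethanol is drunk.

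The labels do not number the libraries. They are numbered here within each group by their order in the series, so equal numbers in the groups mark no pair. Library totals ran from 13340420 to 27917715 counts. The mean log2 CPM (counts scaled to a common library total) of 12 striatal projection neuron markers lay between 8.71 and 9.51 in every library, as the tissue label says. The mean of 11 cortical excitatory neuron markers was 4.69 to 5.55 in the saline libraries and 2.48 to 5.40 in the varenicline libraries, and all 11 had negative fold changes, with a median of -1.21 on the log2 scale. Of the 11, 10 had an unadjusted p under 0.05; edgeR called 0 after adjustment, and 10 without varenicline 6. Markers of several other cell types lay mostly on the positive side: 5 of 5 for septum (median 1.19, 5 at an unadjusted p under 0.05), 12 of 12 for striatal projection neurons (median 0.20, 5), 9 of 10 for oligodendrocytes (median 0.17, 4) and 8 of 8 for astrocytes (median 0.065, 2). edgeR called 0 of these, and without varenicline 6 it called 2, 4, 5 and 2 of them. Choroid plexus markers were positive in 6 of 6, microglial in 4 of 7 and endothelial in 3 of 6. The library varenicline 6, at 5.40, lay in the saline range, and the next highest varenicline library, varenicline 1, was at 4.22. The part of the cortical markers in the results below was examined only by fits with their mean as a covariate. That of the other markers was not tested. With varenicline 6 left out, the groups did not overlap in the cortical mean. That fit therefore cannot separate group from covariate well, and its values are uncertain. In bulk tissue, fewer cells of a type and less RNA per cell cannot be told apart. The libraries saline 5 and saline 6 stood apart among the ribosomal protein genes, as described below, and results that rest on them are given with and without them.

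Ribosomal proteins are made in matched amounts, assembled on ribosomal RNA in the nucleolus, and used in every cell type. In neurons, ribosomes in the cell body and in dendrites serve the protein synthesis on which lasting synaptic change depends. Messages of these genes are known for a 5′ terminal oligopyrimidine tract, a C at the transcription start followed by an unbroken run of C and T, through which the kinase mTOR and the RNA-binding protein Larp1 control their translation together.

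Start-site sequences are shown for the members named by p in the comparison with an entry in the RefSeq promoter table (GRCm38.p6), because the tract is the sequence feature these messages are known for. Each window runs from 10 bases before the annotated start to the base 20 on, 5′ to 3′ on the gene's strand. Capitals mark a run of a C followed by at least 4 C or T that begins within 10 bases of the start. Where a gene had several annotated starts, the window with such a run nearest its start was chosen. This concerns Rpl35a and Rps19, with 3 starts each, and Rpl19, with 2. The windows of these genes were thus picked for the run they show.
Rps12 (chr10:23787190-23787219, minus strand): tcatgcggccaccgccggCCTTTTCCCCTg
Rpl22l1 (chr3:28805498-28805527, plus strand): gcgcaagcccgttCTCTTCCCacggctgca
Rpl35a (chr16:33056472-33056501, plus strand): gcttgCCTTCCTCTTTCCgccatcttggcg
Rps19 (chr7:24884903-24884932, plus strand): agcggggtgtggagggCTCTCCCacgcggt
Rpl5 (chr5:107900518-107900547, plus strand): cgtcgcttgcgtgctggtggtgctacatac
Rpl36al (chr12:69184048-69184077, minus strand): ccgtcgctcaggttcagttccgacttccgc
Rpl35 (chr2:39005112-39005141, minus strand): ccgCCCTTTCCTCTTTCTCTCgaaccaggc
Rpl41 (chr10:128549149-128549178, minus strand): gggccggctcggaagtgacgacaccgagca
Rpl38 (chr11:114668570-114668599, plus strand): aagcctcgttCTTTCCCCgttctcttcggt
Rpl19 (chr11:98026700-98026729, plus strand): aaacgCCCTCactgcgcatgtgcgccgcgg

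Of the 85 members, 64 had an entry. In 13 of them, 20.3%, the base at an annotated start was a C followed by at least 4 C or T, whether the run began there or further upstream, against 3.01% of the 27025 genes in the table. With the search widened to 10 bases on either side, 39 members had a run, 60.9%, against 34.4% of all genes. Only the gene's strand was searched, and the runs were 5 to 20 bases long with a median of 8. The starts used in these libraries were not measured, so a missing run near an annotated start is not read as a missing tract. Of the 10 members shown, 7 had a run near any of their annotated starts: 4 of the 5 with a positive fold change and 3 of the 5 with a negative one. Among tested members the median log2 fold change, varenicline minus saline, was 0.033 for the 35 with a run and 0.017 for the 24 without.

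Ribosomal protein messages were abundant. The 79 tested members had a median RPKM (here CPM per kilobase of exon) of 227, against 8.21 for all tested genes, and 73 of them exceeded 90% of the tested genes. The members are short, with a median exon length of 725 bases against 2958. Per length, the highest was Rplp1, an acidic protein of the ribosomal stalk, at 691 ± 27.9 with saline and 694 ± 22.5 with varenicline (SD, n = 6). Next came Rpl41, which encodes one of the smallest known proteins, at 606 ± 33.6 and 587 ± 34.9 RPKM. Rps29, a zinc-binding protein of the small subunit, had 554 ± 50.1 and 599 ± 30.1, and Rps15, a protein of the small subunit's head, 472 ± 15.8 and 478 ± 18.8. Rplp1 lay apart from Rpl41 beyond their spread, while the saline spreads of Rpl41 and Rps29 met. The authors' FPKM, which scale short messages up more, placed Rps29 at 1217 on average and Rplp1 at 1111. They also placed Rpl38, which had rank 19 by RPKM, at 977, above Rps15 at 801. The order thus depends on the measure, and core genes with almost no counts, described below, have no place in it.

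**Figure D1:**
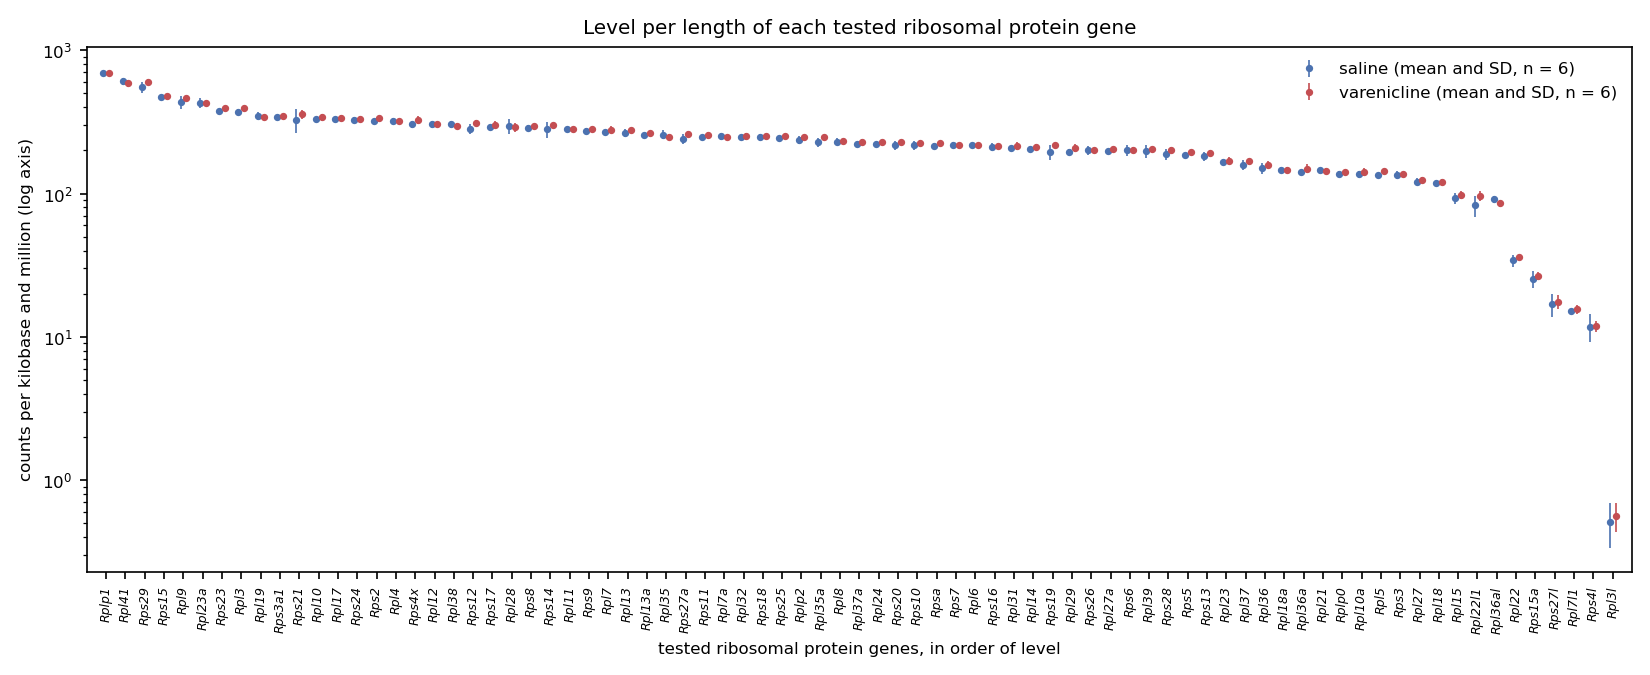
RPKM of each of the 79 tested ribosomal protein genes on a log axis, mean and SD of 6 libraries per group. Levels run from Rplp1 at 692 on average down to Rpl3l at 0.538, and the 4 lowest genes are paralogues.

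The 4 lowest tested members were paralogues, genes related in sequence to a core gene. Rpl3l, the muscle form of Rpl3, had 0.513 ± 0.178 RPKM with saline and 0.564 ± 0.128 with varenicline, where Rpl3 averaged 382 over all libraries. Rps4l, an intronless copy of Rps4x, had 11.7 ± 2.60 and 11.9 ± 1.05. Rpl7l1 had 15.2 ± 0.491 and 15.5 ± 1.15, and Rps27l 16.8 ± 3.09 and 17.5 ± 1.97. At these levels Rpl7l1 and Rps27l did not differ beyond their spread. Rpl10l and Rpl39l, paralogues known from the testis, had 0 and 20 counts in the 12 libraries together, too few for a test. A count of 0 allows up to 3 counts per library, between 0.107 and 0.225 CPM, which covers counting error only.

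No ribosomal protein gene passed the adjusted threshold between varenicline and saline. At a Benjamini-Hochberg adjusted p under 0.05, computed over the whole set of 15111 genes, edgeR's quasi-likelihood test called 0 of the 79 members and 0% of all tested genes. At an unadjusted p under 0.05 there was 1 member, or 1.27%, with a positive fold change. All tested genes gave 16.9%, made up of 7.27% with positive and 9.64% with negative fold changes. DESeq2 called 0 members and 2.69% of all genes, and limma-voom with sample weights called 0 members and 13.9%. At an unadjusted p under 0.05 DESeq2 had 2 members, Rps12 and Rpl5, against 17.5% of all genes, and limma-voom had 4, Rps12, Rpl35a, Rpl36al and Rpl38, against 28.7%. Without varenicline 6, edgeR called 10.8% of the tested genes and again 0 members, with 6 members at an unadjusted p under 0.05 against 26.3%.

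The members' count at an unadjusted p under 0.05 stayed below the background under the other fits too. limma on the deposited FPKM gave 2 members against 16.9% of genes with a pseudocount of 1 and 2 against 16.8% with 0.1, and on Cuffnorm values 2 against 16.3%. These were Rps12 and Rpl30, the latter from the small part of its locus described below. At an adjusted p these fits called 0 members and 0%, 0.0208% and 0.0199% of genes. With trends by gene length removed there were 4 members, Rps12, Rpl22l1, Rpl35a and Rps19, against 16.9%. With the cortical marker mean as a covariate there were 0 members against 4.94% (adjusted, 0 against 0.0794%). With varenicline 6 also left out there were 3 members, Rpl28, Rpl35 and Rpl41, with negative fold changes, against 10.8% of genes in either direction and 5.31% in that one. Without saline 5 and saline 6 there was 1 member, Rpl38 with a negative fold change, against 14.4%.

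The fold changes of the members lay close to 0. Their log2 fold changes ran from -0.10 for Rpl36al to 0.20 for Rpl22l1, with a median of 0.029 against 0.0074 for all tested genes. The 95% interval lay within 0.25 of 0 on the log2 scale, a change of 1.19-fold, for 73 members, where 37.5% of all tested genes had such an interval. The 6 whose interval reached that bound were Rpl22l1, Rps19, Rps21, Rpl3l, Rps27l and Rps4l. In 0 members did all libraries of one group lie above those of the other, where 0.754% of all tested genes had groups that did not overlap.

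Small positive values outnumbered negative ones, 57 against 22, which is 72.2% above 0 where 52.3% of all tested genes were. By subunit, 31 of 47 large and 26 of 32 small subunit genes were above 0, with medians of 0.017 and 0.036. Members are not independent of each other, and this count carries no test. Among 743 other tested genes of like length, 520 to 980 bases, the median was -0.021 and 44.4% were above 0. Without saline 5 the members' median was 0.018, and without saline 5 and saline 6 it was 0.012, with 52 of 79 above 0. With the cortical marker mean as a covariate it was 0.015, and with varenicline 6 also left out it was 0.0062, with 41 of 79 above 0. The share of all counts that fell in members was 1.38% to 1.47% in the saline libraries, mean 1.43% ± 0.0316, and 1.42% to 1.51% in the varenicline libraries, mean 1.47% ± 0.0364 (SD, n = 6), so the groups overlapped.

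**Figure D2:**
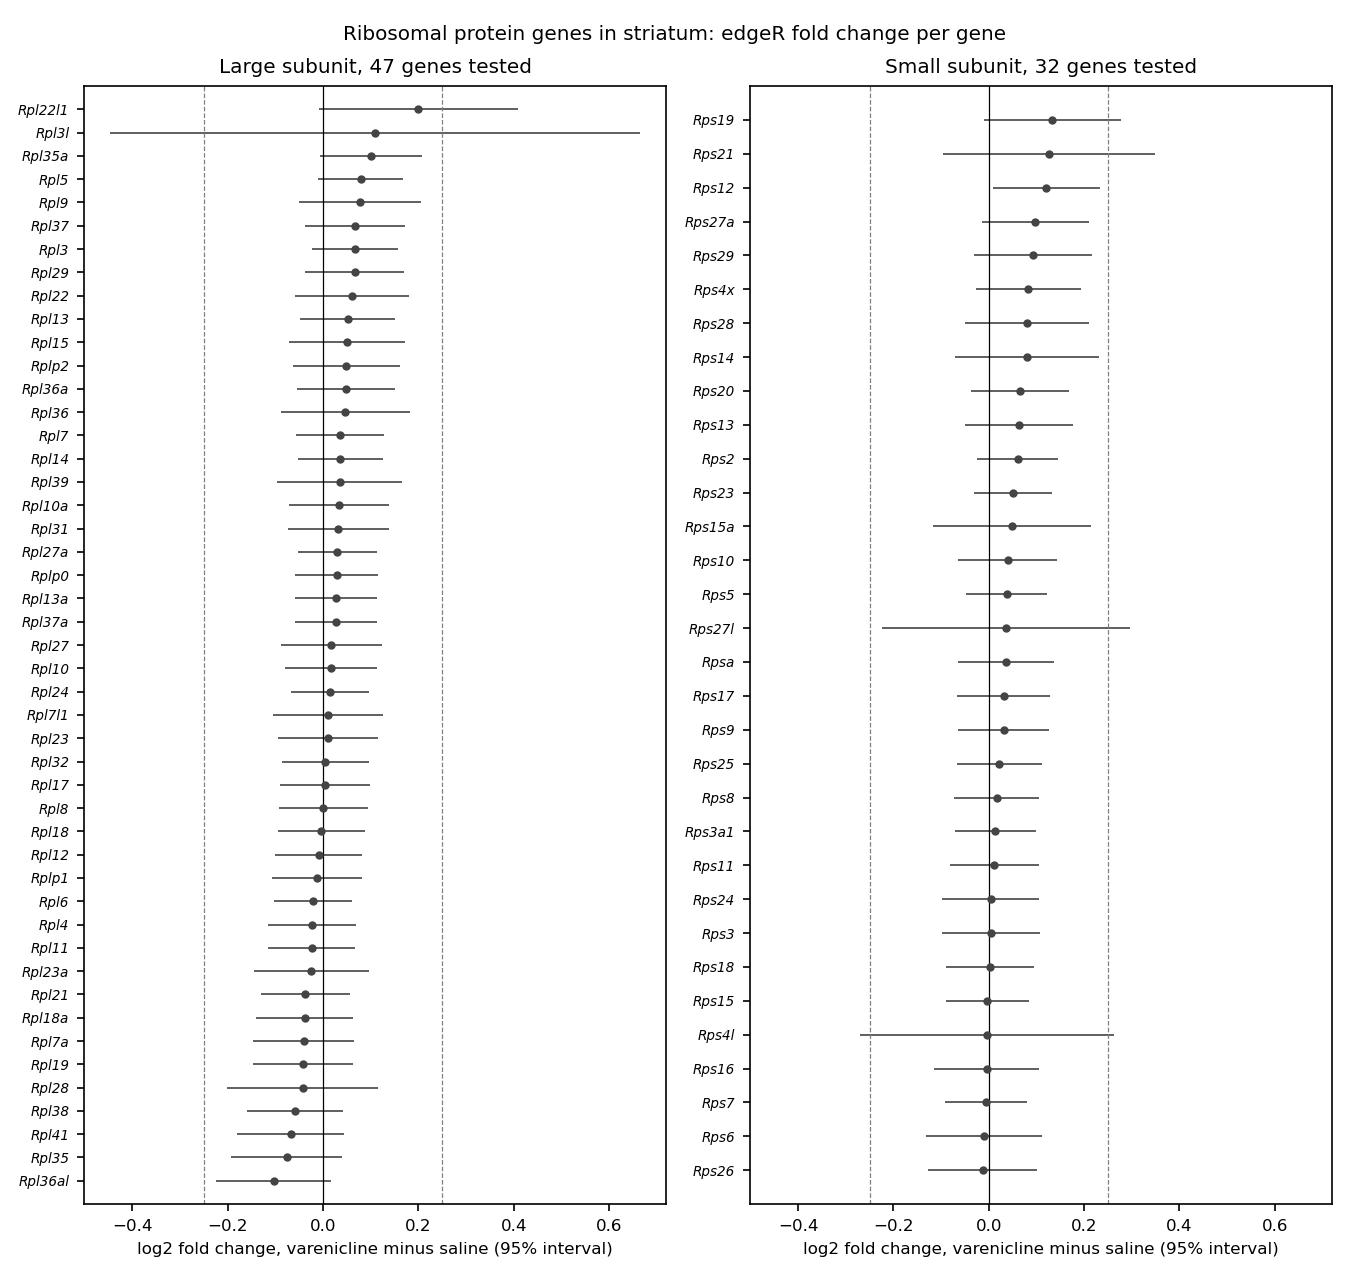
edgeR log2 fold change, varenicline minus saline, with its 95% interval for each of 47 large and 32 small subunit genes from 6 libraries per group; dashed lines mark 0.25 on either side of 0. Values run from -0.10 for Rpl36al to 0.20 for Rpl22l1, and 73 intervals lie between the dashed lines.

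Libraries of one group also differed little in these genes. The median within-group SD was 0.074 on the log2 CPM scale for members and 0.16 for all tested genes. Among 1198 other tested genes with a mean level in the members' middle range, 121 to 255 CPM, it was 0.11, and 26.2% of those had an unadjusted p under 0.05. Rpl6 was the steadiest member, at 0.034, and Rpl3l, at 0.36, the least steady. After it came Rps4l at 0.23, Rps21 and Rps27l at 0.22 each and Rpl22l1 at 0.20, of which Rps21 and Rpl22l1 are well counted.

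The only member with an unadjusted p under 0.05 was Rps12 (ENSMUSG00000061983, chromosome 10, 23785183 to 23787209 on mm10, 6 exons), a protein of the small subunit. Its level was lowest at 132, median 148 and highest at 160 CPM with saline, and 149, 163 and 167 CPM with varenicline. The groups overlapped, and all 6 varenicline libraries lay above the saline mean. This held for 11 of the 79 tested members, and the share over all tested genes was not computed. The log2 fold change was 0.12 (SE 0.053, edgeR unadjusted p = 0.0357, adjusted p = 0.258), and 0.071 without saline 5 and saline 6. Of the stretches of 150 bases, the read length, in its longest transcript, 79.3% also occur in another annotated gene, chiefly the pseudogene Rps12-ps3, so its count depends on how the authors assigned such reads. The same limit holds widely: 66 of the 79 tested members shared some stretch with another gene, with a median of 18.5%. In 13 of them over 50% was shared, among them Rps6 at 82.4% and Rpl3 at 71.0%. Some longest transcripts exceed the counted exons, as for Rps20 with 3706 against 502 bases. The shares of such genes may be too low.

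Rpl22l1 (ENSMUSG00000039221, chromosome 3, 28805511 to 28807415), the paralogue of the RNA-binding protein Rpl22, had the highest fold change. It had 29.7, 42.8 and 44.7 CPM at the lowest, median and highest with saline, and 39.7, 45.5 and 50.9 CPM with varenicline. The lowest saline values, 29.7 and 33.6 CPM, belonged to saline 6 and saline 5, and the other 4 saline libraries fell inside the varenicline range. edgeR gave a log2 fold change of 0.20 (SE 0.098, adjusted p = 0.315), and 0.063 without those 2 libraries.

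Rps19, a small subunit protein whose human gene is mutated in Diamond-Blackfan anaemia, had 99.7, 131 and 134 CPM with saline and 128, 136 and 141 CPM with varenicline. This gave a log2 fold change of 0.13 (SE 0.067, edgeR adjusted p = 0.324), and of 0.042 without saline 5 and saline 6. Rpl35a, a large subunit gene of the same disease, had 125, 134 and 151 CPM with saline and 143, 147 and 152 CPM with varenicline. For both genes the varenicline libraries were the more uniform group and lay in the upper part of the saline range or just above it. The log2 fold change of Rpl35a was 0.10 (SE 0.050), and 0.054 without those libraries.

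Rps27a, which is made as a fusion with ubiquitin, had 180, 206 and 215 CPM with saline and 206, 212 and 225 CPM with varenicline. A log2 fold change of 0.097 (SE 0.053) became 0.034 without saline 5 and saline 6. Rpl5 had 258, 274 and 284 CPM with saline and 276, 285 and 304 CPM with varenicline, a log2 fold change of 0.079 (SE 0.042) that was 0.068 without them. Thus 5 of the 6 genes with the smallest p on the positive side shrank by more than 1.5 times without saline 5 and saline 6, and Rpl5 did not. With the cortical marker mean as a covariate and varenicline 6 left out, Rpl22l1 had 0.31, Rps19 0.22, Rpl5 0.15, Rps12 0.15 and Rps27a 0.14, each further from 0, and Rpl35a 0.079. In that fit the groups do not overlap in the covariate, so these values are uncertain and are not read as larger effects.

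On the negative side the smallest p belonged to Rpl36al (ENSMUSG00000049751, chromosome 12, 69182734 to 69184067, 2 exons), the paralogue of Rpl36a, a protein near the site where transfer RNA leaves. It had 43.9, 47.1 and 52.9 CPM with saline and 40.5, 44.9 and 45.9 CPM with varenicline. All 6 varenicline libraries lay below the saline mean, as in 3 tested members in all, and the groups overlapped. edgeR gave a log2 fold change of -0.10 (SE 0.057, adjusted p = 0.367), and -0.047 without saline 5 and saline 6. With the cortical marker mean as a covariate and varenicline 6 left out it was -0.16, in a fit where group and covariate are hard to separate.

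Rpl35, a large subunit protein, had 111, 114 and 137 CPM with saline and 107, 111 and 117 CPM with varenicline, a log2 fold change of -0.076 (SE 0.054). The highest saline value belonged to saline 6, and without saline 5 and saline 6 the log2 fold change was -0.018. Rpl41 had 260, 271 and 309 CPM with saline and 245, 258 and 281 CPM with varenicline, with -0.068 (SE 0.053) and -0.023 without them. The covariate moved both the other way: Rpl35 had -0.13 with the cortical marker mean and -0.27 with varenicline 6 also left out, and Rpl41 had -0.089 and -0.23. The values of -0.27 and -0.23 come from the fit in which group and covariate are hard to separate. Rpl38, a large subunit gene known for its part in the translation of Hox messages, had 104, 115 and 118 CPM with saline and 102, 110 and 112 CPM with varenicline. Here the log2 fold change was -0.058 (SE 0.047) and, unlike that of Rpl35 and Rpl41, moved away from 0, to -0.10, without saline 5 and saline 6. Rpl21 had -0.038 (SE 0.044), and 0.0078 with the cortical marker mean as a covariate. Rpl19 had -0.042 (SE 0.050), and 0.0080 without saline 5 and saline 6.

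The ribosomal stalk recruits translation factors and is built from Rplp0, which binds ribosomal RNA, and pairs of Rplp1 and Rplp2. Their log2 fold changes were 0.029 (SE 0.041), -0.013 (SE 0.044) and 0.049 (SE 0.052). Rpl5 and Rpl11 join 5S ribosomal RNA in a particle that, when ribosome assembly is disturbed, binds the p53 regulator Mdm2. Rpl11 had 160, 169 and 180 CPM with saline and 159, 167 and 176 CPM with varenicline, a log2 fold change of -0.024 (SE 0.043), opposite in sign to that of Rpl5. Rps6, the substrate of the S6 kinases, had 263, 270 and 328 CPM with saline and 267, 281 and 291 CPM with varenicline. On the log2 scale the difference was -0.0098 (SE 0.057); the value of 328 CPM was that of saline 6. Rpsa, also known as the laminin receptor precursor, had 374, 402 and 437 CPM with saline and 391, 420 and 425 CPM with varenicline (0.036, SE 0.047). In Rpl5, 5 of the 6 saline libraries lay below the lowest varenicline library. In the genes of the stalk and in Rpl11, Rps6 and Rpsa the libraries of the groups were intermingled.

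Paralogues were set against their core genes within each library, which cancels the library's depth. The ratios were tested after the members' values had been seen. Of 8 pairs, 5 had both genes tested, and each was compared by an exact permutation test, two-sided, over all 924 assignments of the libraries, with adjustment over the 5 ratios. Rpl36al counts were 69.1%, 66.1%, 64.3%, 62.1%, 68.9% and 75.2% of those of Rpl36a in saline 1 to 6. In varenicline 1 to 6 they were 61.7%, 61.9%, 57.8%, 61.4%, 63.7% and 59.2%. The means were 67.6% ± 4.56 and 60.9% ± 2.09 (SD, n = 6), and only saline 4 lay within the varenicline range. The log2 ratio differed by -0.15, varenicline minus saline (exact permutation p = 0.00433, adjusted 0.0216).

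That difference drew on both genes, since Rpl36al had a log2 fold change of -0.10 and Rpl36a of 0.048 (SE 0.048), neither past the adjusted threshold. It was -0.12 without saline 6 (exact permutation p adjusted 0.0541) and -0.10 without saline 5 and saline 6 (exact permutation p adjusted 0.0952), and -0.14 from the Cuffnorm values (exact permutation p adjusted 0.0541). With 1 library left out, the adjusted exact permutation p was above 0.05 without saline 6 and without each of varenicline 1, 2, 3, 4 and 6, and reached 0.0758 without varenicline 3. The coding sequences of the pair are 87.9% identical. Of the stretches of 150 bases in the longest transcript of Rpl36a, 81.1% also occur in another annotated gene, chiefly Rpl36a-ps2. For Rpl36al the share was 18.2%, but of a transcript of 1276 bases, where the counted exons cover 517 bases. For Rpl36a these lengths are 483 and 489 bases, so the shares are not directly comparable. The ratio thus depends on how reads of near-identical copies were assigned. The part of the cortical markers in this ratio was not tested. With their mean as a covariate and varenicline 6 left out, both genes had negative log2 fold changes, in a fit whose values are uncertain.

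Rpl22l1 counts were 46.1% ± 4.29 of those of Rpl22 with saline and 51.0% ± 3.72 with varenicline. The lowest were saline 6 at 38.8% and saline 5 at 44.1%, and the highest was varenicline 2 at 56.5%. The log2 ratio differed by 0.15 (exact permutation p = 0.0606, adjusted 0.152), and by 0.072 without saline 5 and saline 6. Per length, Rpl22l1 was at 255% of Rpl22, so in this tissue the paralogue had the higher level of the pair on that scale. The coding sequences of this pair are 68.2% identical. Rpl7l1 stood at 15.8% ± 0.686 of Rpl7 with saline and 15.6% ± 1.40 with varenicline, Rps4l at 4.19% ± 1.10 and 3.94% ± 0.441 of Rps4x, and Rpl3l at 0.163% ± 0.0592 and 0.168% ± 0.0356 of Rpl3. In these 3 pairs the exact permutation p lay between 0.671 and 0.755, and the means differed by less than the spread.

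**Figure D3:**
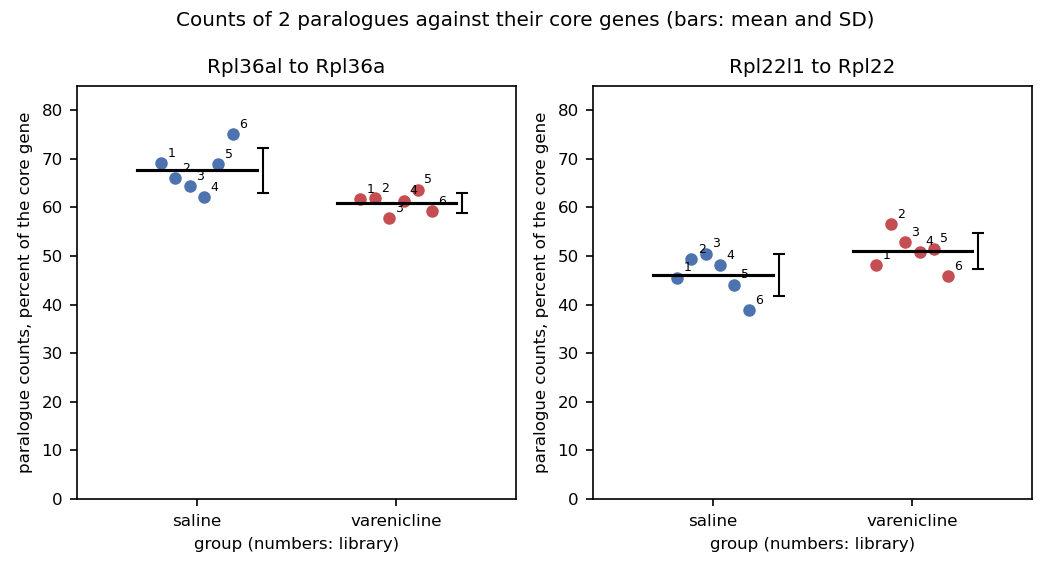
Counts of Rpl36al as a percent of Rpl36a and of Rpl22l1 as a percent of Rpl22 in each library, with library numbers, group means and SD (n = 6). For Rpl36al only saline 4 lies within the varenicline range, and saline 6 is the highest library for Rpl36al and the lowest for Rpl22l1.

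The count table held almost no reads for 4 core genes. Rpl26 had 0, Rpl30 63, Rpl34 63 and Rps27 99 counts over all 12 libraries. In each case the table lists a second gene on the same strand over the same exons, covering 95.8% of the exon bases of Rpl26 (Gm15772), 76.0% of Rpl30 (Gm12191), 60.0% of Rps27 (Rps27rt) and 59.9% of Rpl34 (Rpl34-ps1). These second entries had 0 counts. The authors' Cuffnorm values did place signal there and gave most of it to the second entry, with 6.48% of the sum at Rpl26, 4.75% at Rpl30, 26.7% at Rps27 and 14.4% at Rpl34 assigned to the ribosomal protein gene. The near absence of counts for these genes is for that reason not read as a level.

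With both entries of a locus summed, the Cuffnorm value of Rpl26, a large subunit gene (chromosome 11, 68901566 to 68904534), was 4893 ± 77.8 with saline and 4986 ± 82.6 with varenicline (SD, n = 6). That is a log2 fold change of 0.03 (limma adjusted p = 0.734). Rpl30 (chromosome 15, 34440508 to 34443276) had 2959 ± 212 and 3201 ± 196 (log2 0.11, limma adjusted p = 0.372). Rps27 (chromosome 3, 90212667 to 90213648) had 2871 ± 137 and 3059 ± 115 (log2 0.092, limma adjusted p = 0.346), and Rpl34 (chromosome 3, 130726827 to 130730398) 1812 ± 182 and 1905 ± 62.7 (log2 0.078, limma adjusted p = 0.584). The groups overlapped at all 4 loci. At Rpl30, Rps27 and Rpl34 the lowest of the 12 libraries were saline 5 and saline 6. On the opposite strand, 47.7% of the exon bases of Rpl5 lie under Fam69a, 33.1% of those of Rpl31 under Tbc1d8 and 29.4% of those of Rps25 under Ccdc84. The sources used here do not state whether counting used strand, so reads of these pairs cannot be told apart.

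**Figure D4:**
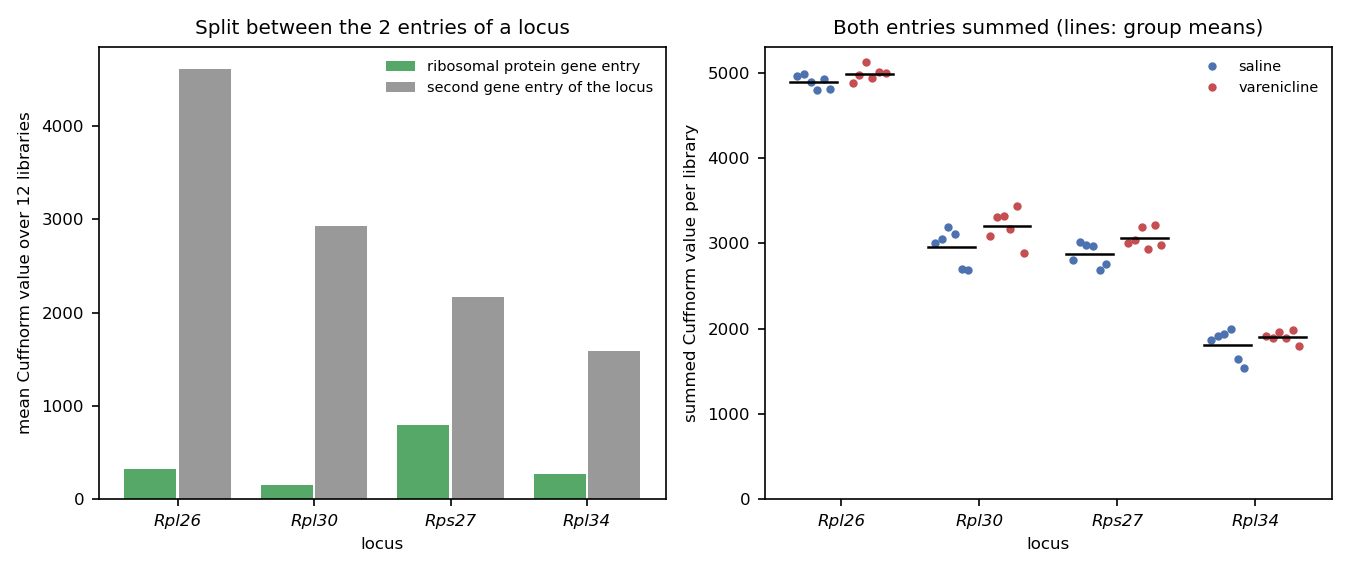
Left, mean Cuffnorm value over 12 libraries of the ribosomal protein gene entry and of the second gene entry at 4 loci; right, both entries summed in each library, with group means. The second entry holds most of the signal at each locus, and at Rpl30, Rps27 and Rpl34 the lowest points are saline 5 and saline 6.

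The widest spread among the ribosomal protein genes was in a pair of saline libraries. As deviations from each gene's own mean over the 12 libraries, members had an SD of 0.12 in saline 5 and 0.17 in saline 6 on the log2 scale, and of 0.059 to 0.087 in the other 10 libraries. In saline 5, 59 of 79 members were below their own mean, with a median of -0.066. In saline 6 the median was -0.0046 with quartiles of -0.13 and 0.086, so that members spread in both directions. In varenicline 3, 62 members were above their mean, with a median of 0.037.

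Members at the ends in saline 5 and saline 6 were partly shared. Of the 10 lowest members in each, 5 were in both lists, and so were 5 of the 10 highest; these libraries' deviations are taken from the same gene means, and the members named here were picked after their values were seen. Below their mean by more than 0.2 in both were Rpl22l1 (-0.33 in saline 5, -0.50 in saline 6), Rps21 (-0.40, -0.47), Rps14 (-0.22, -0.33), Rpl39 (-0.21, -0.21) and Rpl9 (-0.22, -0.21). At the upper end in both were Rpl28 (0.082, 0.34), Rpl23a (0.057, 0.24), Rps6 (0.084, 0.23), Rpl36al (0.090, 0.21) and Rps26 (0.033, 0.19). Rps21, a small subunit protein, thus had 95.9 CPM at its lowest with saline against a median of 137, while all varenicline libraries lay between 127 and 151 CPM. The summed counts of large subunit members were 1.55 and 1.57 times those of small subunit members in saline 5 and saline 6, and 1.48 to 1.51 times in the other libraries.

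In both libraries the deviations were weakly higher in members of higher GC content, taken from each gene's longest transcript. Over the 79 members, Spearman's rho between GC content and deviation was 0.21 in saline 5 and 0.27 in saline 6, and over the 14890 tested genes with a value it was 0.31 and 0.43. Varenicline 6 had 0.23 over members and 0.32 over all genes. The strongest negative values over members were -0.39 in saline 3 and -0.38 in varenicline 1, both with a member SD below 0.09. These are descriptions across genes, which are not replicates, and the part of GC content in the spread of saline 5 and saline 6 was not tested.

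**Figure D5:**
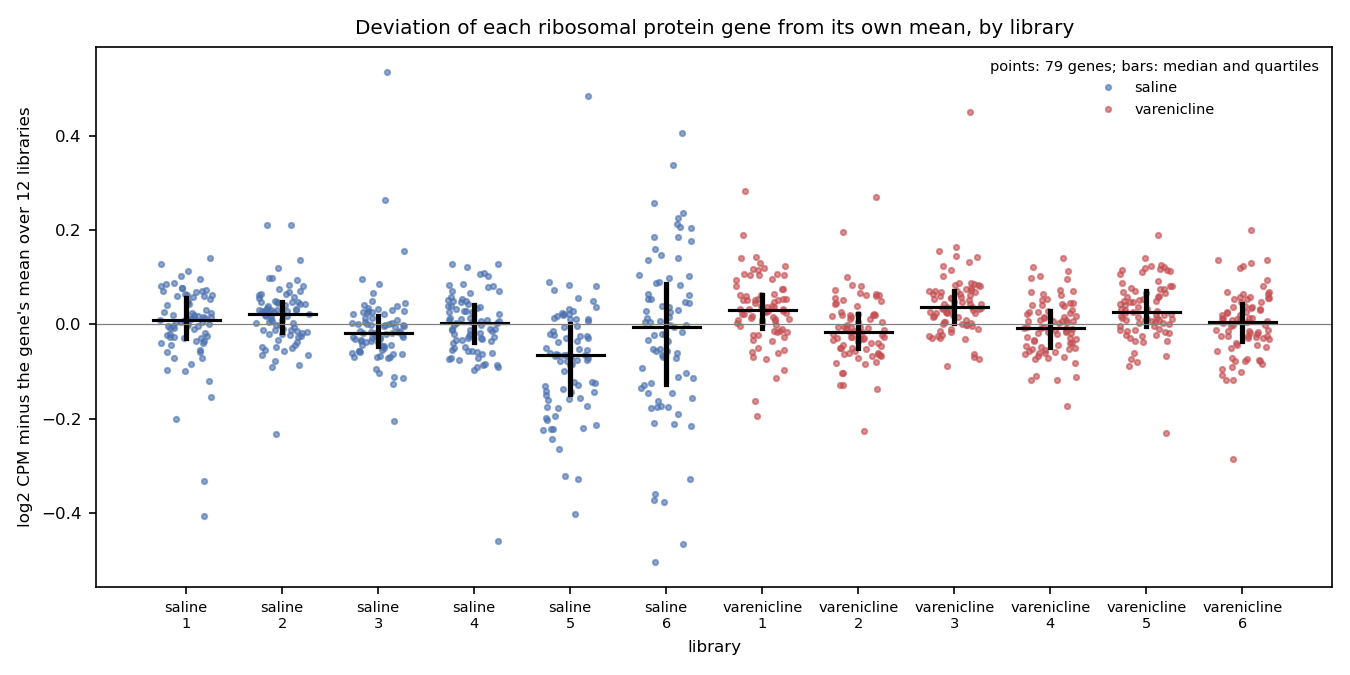
Log2 CPM of each of 79 ribosomal protein genes minus its mean over 12 libraries, by library, with the median and quartiles. Points of saline 5 and saline 6 spread most, with SDs of 0.12 and 0.17, and 59 of 79 genes lie below 0 in saline 5.

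Of ribosomal genes outside the name pattern, Gnb2l1, the older symbol of the small subunit scaffold Rack1, stood at a log2 fold change of 0.055 (SE 0.053). Fau, a fusion of a ubiquitin-like protein with a small subunit protein, stood at 0.040 (SE 0.043). Of 77 mitochondrial ribosomal protein genes, whose products serve translation inside mitochondria, 32 were above 0 and 45 below, edgeR called 0, and 3, Mrps14, Mrpl32 and Mrpl12, had an unadjusted p under 0.05, or 3.90%. The list's median was -0.017, against 0.029 for the cytosolic members.

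Genes that act with the ribosome were read from lists in the same fit, and edgeR called 0 genes in each. Without varenicline 6 it called 3, Eef1a2, Utp20 and Pdk1, where 10.8% of all tested genes were called. At an unadjusted p under 0.05 each of these lists held at most 12.5% of its genes, against 16.9% of all tested genes. Of 34 ribosome biogenesis genes, 22 were above 0 and 12 below, and 2 had an unadjusted p under 0.05. These were Utp20, a factor of small subunit processing (log2 0.21, SE 0.060; edgeR adjusted p = 0.144, and 0.0452 without varenicline 6), and Gnl3, nucleostemin (0.14, SE 0.063). Of 28 tested initiation factors, 14 were above 0 and 14 below, with 2 at an unadjusted p under 0.05, Eif3m (0.16, SE 0.062) and Eif1 (0.16, SE 0.072). Of 8 elongation factors, 3 were above 0 and 5 below. Eef1a2, the neuronal form of the factor that brings transfer RNA to the ribosome, had a mean of 749 ± 38.9 CPM in saline and 643 ± 65.6 CPM in varenicline libraries (log2 -0.22, SE 0.064, edgeR adjusted p = 0.147). Its log2 fold change was -0.27 without varenicline 6 (SE 0.050, edgeR adjusted p = 0.00367). With the cortical marker mean as a covariate it was -0.095 (SE 0.072, edgeR adjusted p = 0.996). With that covariate and varenicline 6 left out, Eef1a2 had -0.23, with a wider SE of 0.097 (edgeR adjusted p = 0.433). Eef1a1, its widely expressed counterpart, had 0.060 (SE 0.046). Of 20 genes listed for mTOR control, 8 were above 0 and 12 below, with 1 at an unadjusted p under 0.05. That gene was Pdk1 (-0.25, SE 0.089; edgeR adjusted p = 0.189, 0.0406 without varenicline 6, and a log2 fold change of -0.037 with the covariate), which under this symbol is a kinase of pyruvate dehydrogenase; the kinase upstream of Akt, Pdpk1, had 0.10 (SE 0.064).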

How the data were processed

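The submitters' processing notes name TopHat2 and featureCounts, Cuffnorm and Cuffdiff, DESeq2, Trimmomatic and FastQC, and the build mm10. The sources used here state no versions, annotation or strand setting. The main values were the counts that the authors deposited, whole reads per gene, not normalized, from single reads of 150 nt. The authors also deposited FPKM values, and a signal of scaled counts per gene from Cuffnorm; both served as alternatives. No pair of libraries, of 66, agreed within sampling noise (lowest chi-square per degree of freedom 5.90).

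Genes with at least 10 counts in 6 or more libraries entered, after TMM scaling, edgeR 4.0.16 (quasi-likelihood F test, R 4.3.3), varenicline minus saline. P-values were adjusted by Benjamini-Hochberg across every tested gene, with 0.05 as the threshold. CPM use TMM-scaled totals, and RPKM use raw totals and the exon length in the count table. The fit was tested on simulated data. The members and lists were chosen with earlier results of these data known. The genes named are, since none passed, the 6 members per direction with the smallest p, the 4 highest and 4 lowest per length, paralogues with their core genes, the stalk, the 5S particle, Rpsa, Rps6, members too low to test, and in other lists up to 2 genes per direction. Others were chosen after their values were seen.

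Exon overlaps come from the count table's coordinates, shared stretches, GC content and coding identity from GENCODE vM21, and start sites from RefSeq. Protein sequences were not used here. Alternatives were other size factors, filters, DESeq2 1.42.0, limma-voom and limma 3.58.1 on log2 of FPKM plus 1 or 0.1 (genes at 0.5 FPKM or more in 6 libraries) and of Cuffnorm values plus 1, removal of length trends, the cortical marker mean as a covariate, and each library left out. Chosen after seeing the data were the summed loci, the covariate without varenicline 6, the fit without saline 5 and saline 6, and the paralogue ratios.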

Additional observations from a re-analysis of the deposited data

Results flagged for a closer look

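In 6 of 78 sets (a gene or summary in 1 group of 6 libraries), 1 library lay well away from the other 5, which chance gives in about 1 of 20 sets. On the log2 CPM scale, saline 6 was the highest saline library for Rpl35 (7.10, the others 6.79 to 6.88), Rpl41 (8.27, the others 8.02 to 8.09) and Rpl19 (8.32, the others 8.06 to 8.13). All 3 are among the members named for negative fold changes. Rplp0 was lowest in varenicline 2 (7.52, the others 7.58 to 7.61). Rpl7l1 was highest in varenicline 1 (5.51, the others 5.23 to 5.32), and Rps27l was lowest in varenicline 6 (2.71, the others 3.01 to 3.15).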

How the results depend on the processing

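No member was called in any of the 27 alternatives, and the lowest adjusted p of a member in any fit was 0.0789, for Rps12 without saline 2 (edgeR). Members at an unadjusted p under 0.05 numbered 1 in the fit reported, 2 with DESeq2, with FPKM plus 1 or plus 0.1 and with Cuffnorm values, 4 with limma-voom and with length trends removed, 0 with the cortical covariate, 3 (all negative) with that covariate and varenicline 6 left out, and 0 to 6 with each library left out. The median log2 fold change of members stayed positive, from 0.0062 to 0.043. The members' share of summed FPKM was 7.11% with saline and 7.30% with varenicline, above their share of counts. The log2 ratio of Rpl36al to Rpl36a was -0.14 with Cuffnorm values and with FPKM and -0.10 without saline 5 and saline 6, past the threshold in none of these, and -0.17 to -0.12 with each library left out.

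Of 27 named members, 13 changed sign in some alternative, 47 of 728 values. Without saline 5 and saline 6 these were Rpl19 (0.0080), Rpl11 (0.0022), Rps6 (0.074), Rpl22 (-0.013), Rps4l (0.14) and Rps27l (-0.081). With the cortical covariate they were Rpl21 (0.0078), Rpl11 (0.016), Rpl7 (-0.030) and Rps27l (-0.11), and with varenicline 6 also left out Rplp2 (-0.064), Rpl3l (-0.30) and Rpl36a (-0.055). Rplp1 had 0.0099 with either FPKM pseudocount and 0.0057 with Cuffnorm values, summed loci or not, and Rpl7l1 had -0.0040, -0.0043 and -0.0086 there and -0.0051 with limma-voom. Rps6 had 0.023 with limma-voom and 0.0029 with length trends removed, and Rps27l -0.0029 with limma-voom. Rps4l, at -0.0031 as reported, had 0.0061 with TMM computed without members, 0.00071 with no filter, 0.0010 at 1 CPM, 0.080 with limma-voom, 0.0078 and 0.0092 with FPKM, 0.0050 with Cuffnorm values and 0.011 with length trends removed. With each library left out the ranges were -0.027 to 0.035 for Rpl7l1, -0.021 to 0.0088 for Rplp1, -0.023 to 0.11 for Rps27l, -0.069 to 0.12 for Rps4l and -0.027 to 0.040 for Rps6. The cause of these changes was not tested. DESeq2 gave no adjusted p for 1 member and 2930 genes.

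No paired analysis was possible because the labels give every sample the same replicate number. At 9 to 29 counts per library, differences inside the interval of Rpl3l, -0.45 to 0.66, were not detectable.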
